A study of Rattus norvegicus with 6 samples.

Results

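Pre-mRNA splicing factors and heterogeneous nuclear ribonucleoproteins (hnRNPs) were examined in RBL-2H3 cells treated with dihydrocoumarin (DHC). The members were all genes of the deposited expression table whose symbol starts with Srsf and a digit, Hnrnp, Snrp, Sf3a, Sf3b or U2af. The rule itself uses symbols only, but the set was proposed with earlier results of these data known. The rule found 55 of 18286 genes, of which 11 were Srsf, 19 Hnrnp, 13 Snrp, 9 Sf3a or Sf3b and 3 U2af genes. RBL-2H3 cells come from a rat basophilic leukemia, respond to IgE and antigen, and serve as a mast cell model, and DHC is a lactone related to coumarin. There were 3 libraries from cells labelled as treated with DHC and 3 control libraries whose treatment label was none. The same protocol stands for both groups, in which cells were sensitized for 12 h with anti-DNP IgE (50 ng/ml) and then stimulated for 4 h with DNP-HSA (100 ng/ml). Whether control cells received IgE and antigen is not stated, and no concentration or exposure time of DHC is labelled. The series asks whether DHC inhibits IgE-dependent mast cell activation, and the comparison here is DHC against control as labelled.

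As background, the spliceosome removes introns in steps. U1 and U2 small nuclear ribonucleoproteins (snRNPs) mark the start of the intron and its branch point, U2AF binds near the intron's end, and the SF3a and SF3b complexes anchor U2 at the branch point. Both snRNPs carry a ring of Sm proteins, which the Snrpb, Snrpd, Snrpe, Snrpf and Snrpg genes encode. SR proteins, the products of the Srsf genes, bind exons and generally favour their inclusion, whereas many hnRNPs oppose it or act on mRNA stability and export. SR proteins and hnRNPs are known to control their own and each other's mRNAs through exons that carry stop codons and send the transcript to nonsense-mediated decay.

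The libraries held between 29190987 and 31299551 reads assigned to genes with DHC and between 29084976 and 34170922 in control. All values below are RPKM, reads per kilobase of summed exon length scaled to a fixed number of assigned reads, so that levels of different genes can be set beside each other. In any bulk sample, fewer cells that express a gene and less RNA per cell cannot be told apart. Of 13 mast cell and basophil markers with a row, 10 reached a mean of 1 RPKM, and Tpsb2, Cma1 and Mrgprb3 did not. Their summed level was 914 to 930 RPKM with DHC and 1261 to 1299 RPKM in control. Of the markers of other cells, 1 of 6 macrophage, 2 of 4 fibroblast (Thy1 and Col3a1), 1 of 3 epithelial, 1 of 5 lymphocyte (Cd3e) and 0 of 2 erythroid genes reached 1 RPKM. Their sums were 1.61 to 2.48 with DHC and 1.21 to 1.77 RPKM in control for macrophages, and 2.05 to 2.50 with DHC and 1.68 to 2.35 RPKM in control for epithelium. They were 312 to 321 with DHC and 411 to 418 RPKM in control for fibroblasts, 41.0 to 44.0 with DHC and 32.0 to 37.8 RPKM in control for lymphocytes, and at most 0.123 RPKM for erythroid cells. Mitochondrial transcripts took 3.91 to 4.14% of reads with DHC and 3.34 to 3.53% in control. The part of the markers and of the mitochondrial share in the results below was not tested.

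All 55 members passed the filter of a mean of at least 1 RPKM over the 6 libraries. They are abundant genes, with a median of 102 RPKM against 11.2 RPKM over the 10667 genes tested, and 50.9% of them reached 100 RPKM, against 8.91% of all genes tested. Each had between 17 and 98739 reads in a library, and at least 164 reads where the 3 members under 5 RPKM (Srsf12, Snrpd2l and Snrpep2) are left out. Together they took 2.55, 2.52 and 2.51% of all reads in the DHC libraries and 2.30, 2.28 and 2.25% in the control libraries.

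With DHC, 18 of 55 members rose and 8 fell, and 29 did not pass an adjusted p of 0.05 in limma fitted across all genes. Over all genes tested, 18.4% rose, 16.1% fell and 34.5% passed in either direction, and among the members the shares were 32.7, 14.5 and 47.3%. The genes tested were not matched to the members for abundance, and the part of abundance in these shares was not tested. The changes were small. Those that rose did so 1.10- to 1.55-fold, and the ratios of mean RPKM, DHC over control, of those that fell lay between 0.679 (Srsf9) and 0.886, apart from 0.546 for Srsf12, which passed the filter only through its control libraries. On the log2(RPKM + 1) scale, which every difference below uses and which understates changes of low genes, 2 members rose and 1 fell by at least 0.5. None of the 55 changed by 1, a size reached by 70 genes that rose and 189 that fell among all tested. The median difference was 0.09 over the members and 0.05 over all genes tested, and 40 of 55 members had a positive difference. The 3 DHC values and the 3 control values did not overlap in 33 members, against 49.7% of all genes tested. All 26 members that passed were among these 33.

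**Figure D1:**
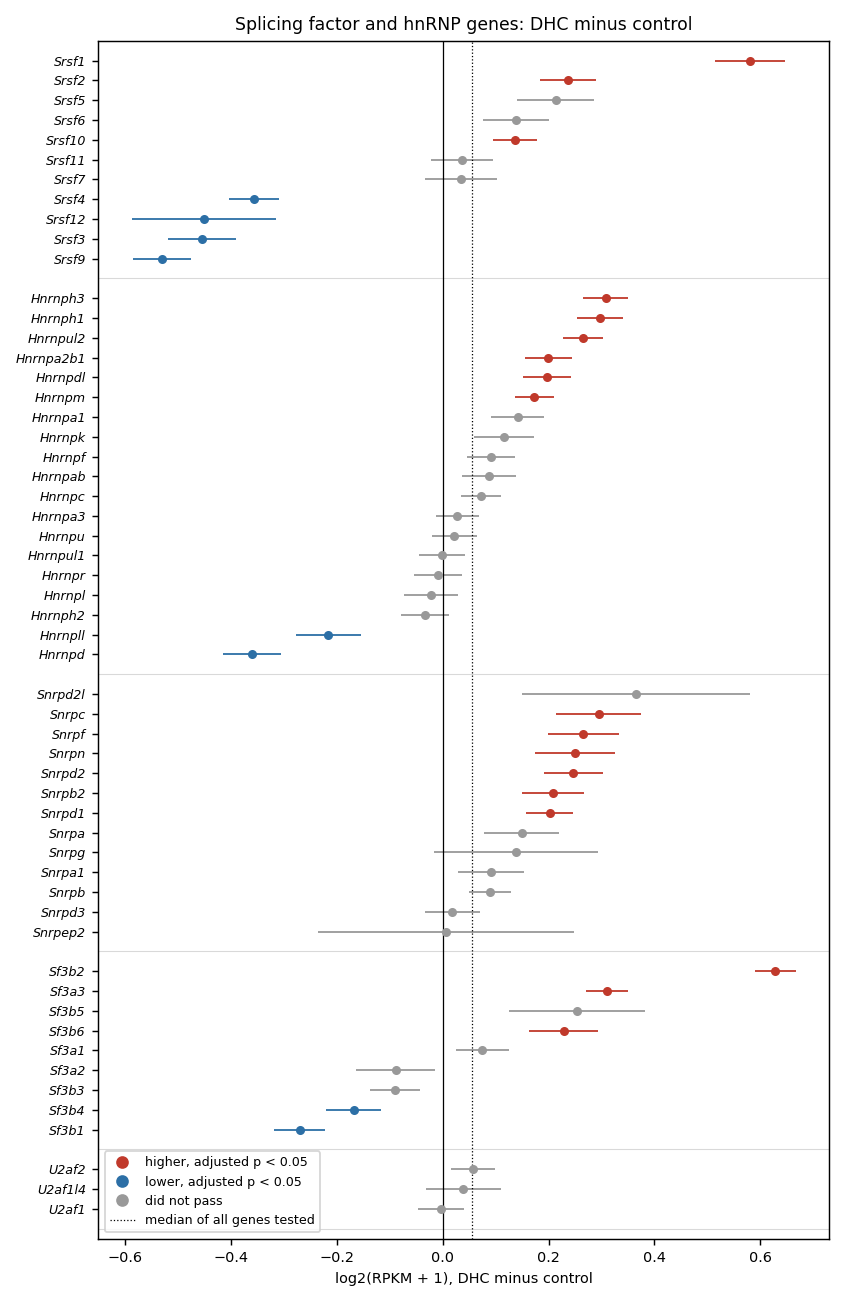
Difference between DHC and control for each of the 55 members, on the log2(RPKM + 1) scale, with bars of 1 SE from limma, by family. Red members rose and blue members fell at an adjusted p below 0.05, grey members did not pass, and the dotted line marks the median of all genes tested (0.05). Srsf genes are spread from −0.53 to 0.58, and all 13 Snrp genes lie above 0. The lowest of these, Snrpep2, is at 0.0063 with an SE of 0.24.

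The split between directions depends on how libraries are scaled. RPKM uses library totals, and with trimmed mean of M-values factors each of the 55 differences was lower, and the median over all genes was −0.00 instead of 0.05. Under these factors 9 members rose and 9 fell, where over all genes 12.0% rose and 19.8% fell. With median-of-ratios factors 13 members rose and 8 fell, where over all genes 12.8% rose and 19.2% fell. Without DHC replicate 2, 10 members rose and 6 fell, against 1195 higher and 1277 lower genes over all tested. Without DHC replicate 3, control replicate 1 or control replicate 2, 5 members fell. Of the 18 members that rose, 8 passed in the same direction under each of the 16 alternatives run at the same threshold, and so did 5 of the 8 that fell. These 13 were Srsf1, Srsf2, Hnrnph1, Hnrnph3, Hnrnpul2, Snrpd2, Sf3a3 and Sf3b2, all higher with DHC, and Srsf3, Srsf4, Srsf9, Hnrnpd and Sf3b1, all lower.

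**Figure D2:**
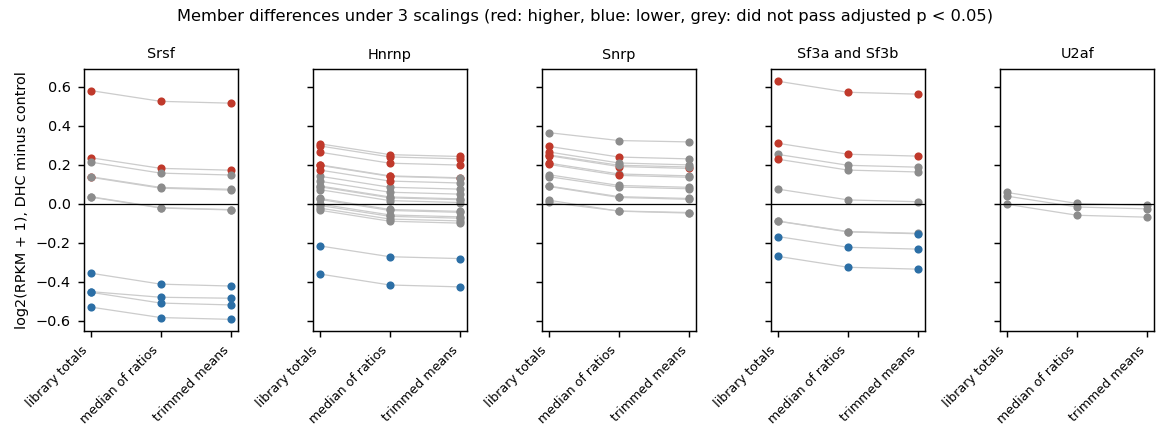
Difference between DHC and control for each member under library totals, median-of-ratios factors and trimmed mean of M-values factors, by family, with the members of each scaling that passed an adjusted p of 0.05 in red (higher) or blue (lower). Every line runs downward by a similar amount, which takes the number of Snrp genes that rose to 1 under trimmed means, against 6 under library totals.

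The SR protein genes moved in both directions. Of 11 Srsf genes, 3 rose (Srsf1, Srsf2 and Srsf10), 4 fell (Srsf3, Srsf4, Srsf9 and Srsf12) and 4 did not pass, with a median difference of 0.04. In shares, 27.3% rose and 36.4% fell, against 18.4 and 16.1% of all genes tested. Srsf1, which encodes a founding SR protein that activates splice sites through exonic enhancers, stood at 48.1, 42.8 and 43.7 RPKM in the DHC libraries and at 31.6, 28.3 and 29.0 RPKM in the control libraries. Every DHC value lay above every control value, a 1.51-fold rise (log2 difference 0.58 ± 0.07, SE, n = 3 per group, limma adjusted p = 0.000564). On the rat build Rnor_6.0, Srsf1 spans chromosome 10, 75335146 to 75341197, and each value is over all its annotated exons. Srsf2, whose protein is a marker of nuclear speckles, had 27.2, 26.4 and 27.6 RPKM with DHC and 22.0, 23.8 and 22.7 RPKM in control (0.24 ± 0.05, limma adjusted p = 0.012). Srsf10, which encodes an SR protein that represses splicing when dephosphorylated, averaged 161 ± 4.65 RPKM with DHC and 147 ± 3.02 RPKM in control (SD, n = 3 each). Its limma adjusted p of 0.0388 became 0.275 under trimmed means and 0.204 under median-of-ratios factors. With single libraries left out, it was 0.0343 without DHC replicate 1 and between 0.0792 and 0.123 without any of the others.

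Srsf9, an SR protein gene of the same group as Srsf1, fell to 15.1, 15.9 and 14.9 RPKM in the DHC libraries, against 21.9, 22.8 and 23.0 RPKM in control libraries. The groups did not overlap, and its difference of −0.53 ± 0.05 had the lowest adjusted p of the family (limma, 0.000357). Srsf3, the gene of the shortest SR protein, which also acts in mRNA export, had 34.2, 38.0 and 39.4 RPKM with DHC and 49.1, 51.4 and 53.4 RPKM in control (−0.45 ± 0.06, limma adjusted p = 0.00167). Srsf4, which encodes an SR protein with a long arginine and serine rich tail, had 140.7, 134 and 135 RPKM with DHC and 168, 183 and 175 RPKM in control (−0.36 ± 0.05, 0.00115 by limma). In each of these 3 genes every DHC library was below every control library. They lie on chromosome 12 (47039716 to 47046022), chromosome 20 (6288267 to 6298213) and chromosome 5 (150032999 to 150060765). Srsf12, an SR-related gene that antagonizes SR proteins, was near the filter, with 80, 47 and 55 reads in the DHC libraries and 119, 99 and 131 reads in the control libraries. It passed the filter through its control libraries (0.768 ± 0.231 RPKM with DHC and 1.41 ± 0.101 RPKM in control, SD, n = 3 each). Its limma adjusted p of 0.0377 was between 0.0766 and 0.119 when any library but DHC replicate 1 was left out, and 0.0562 without both libraries numbered 1.

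Srsf5 was the most abundant Srsf gene and did not pass the threshold. It had 464, 403 and 411 RPKM with DHC and 395, 364 and 342 RPKM in control, without overlap but with a wide spread (0.21 ± 0.07, limma adjusted p = 0.0546). It passed with limma-voom on the recovered reads (0.0115), among genes of at least 5 RPKM (0.0453), without control replicate 1 (0.031) and without both libraries numbered 1 (0.0188). Srsf6, Srsf7 and Srsf11, whose products also bind exonic enhancers or regulate splice site choice, had overlapping values in the 2 groups and differences of 0.14, 0.03 and 0.04. The ratio of Srsf1 to Srsf3 RPKM within a library was 1.41, 1.13 and 1.11 with DHC and 0.643, 0.552 and 0.544 in control. The ratio of Srsf4 to Srsf5 was 0.304, 0.334 and 0.328 with DHC and 0.425, 0.503 and 0.512 in control. Both pairs were chosen after their values were seen, and the ratios are a description without a test. The sum over the 11 genes was 1302 ± 61.9 RPKM with DHC and 1256 ± 37.6 RPKM in control (SD, n = 3 each), with overlapping libraries.

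**Figure D3:**
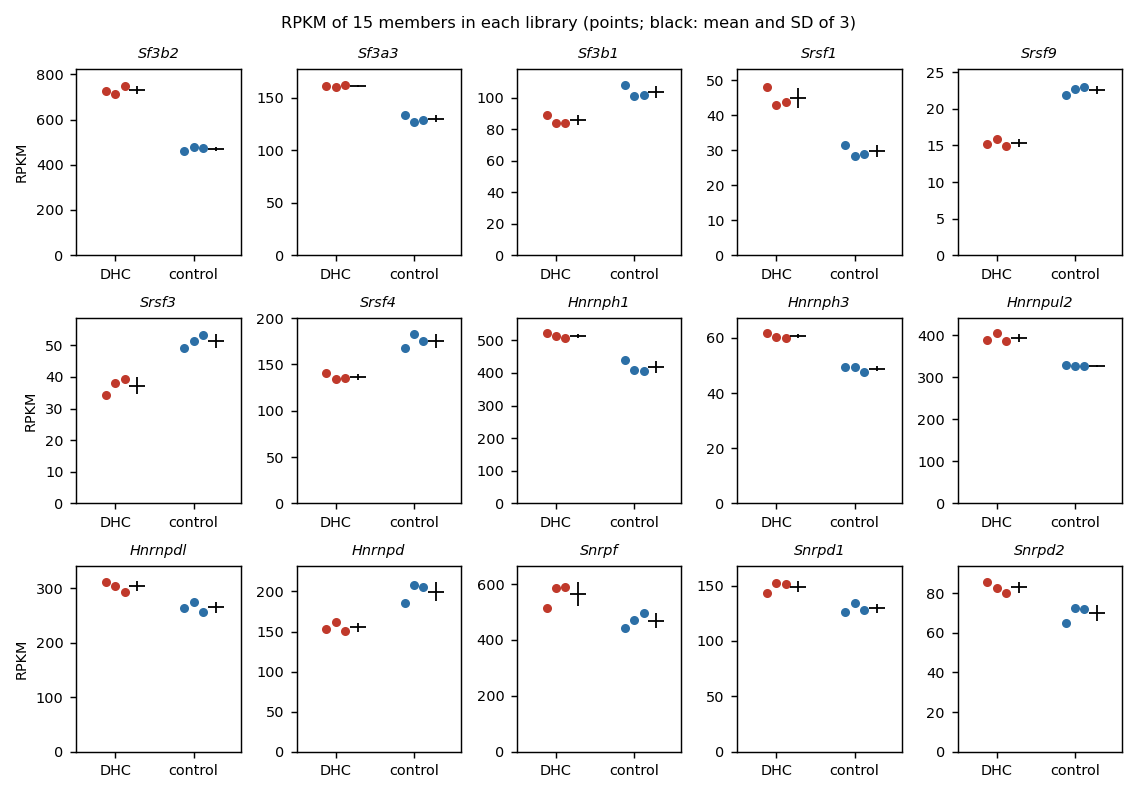
RPKM of 15 members in each library, with DHC in red on the left and control in blue on the right of each panel, each axis starting at 0, and the mean and SD of 3 libraries in black. In all 15 panels the 3 DHC points lie on 1 side of the 3 control points, above them for 10 genes and below them for Sf3b1, Srsf9, Srsf3, Srsf4 and Hnrnpd. The 15 were chosen among the 26 members that passed, none of which overlaps between groups, so the separation follows from the choice.

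Promoters are shown for the Srsf genes with the largest rise and the largest falls among those well above the filter, and below for a neighbouring pair of Hnrnp genes. They come from RefSeq on the build GRCr8, run 5′ to 3′ on the gene's strand from 250 bases before to 50 bases after the annotated start, and have matches to 6 short motifs in capitals. The regions are chr10:73336248-73336547 on the plus strand for Srsf1, chr12:46945098-46945397 on the minus strand for Srsf9 and chr20:7093335-7093634 on the plus strand for Srsf3. Capitals mark a pair of CCAAT boxes in Srsf1, a GC box in Srsf9, and a CCAAT box, an E-box and a TATA box in Srsf3.
Srsf1: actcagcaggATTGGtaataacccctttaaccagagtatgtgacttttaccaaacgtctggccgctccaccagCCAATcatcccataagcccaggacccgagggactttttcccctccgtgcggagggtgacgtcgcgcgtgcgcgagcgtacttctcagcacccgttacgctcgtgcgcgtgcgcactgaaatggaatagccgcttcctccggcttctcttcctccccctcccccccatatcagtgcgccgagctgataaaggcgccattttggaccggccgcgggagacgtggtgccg
Srsf9: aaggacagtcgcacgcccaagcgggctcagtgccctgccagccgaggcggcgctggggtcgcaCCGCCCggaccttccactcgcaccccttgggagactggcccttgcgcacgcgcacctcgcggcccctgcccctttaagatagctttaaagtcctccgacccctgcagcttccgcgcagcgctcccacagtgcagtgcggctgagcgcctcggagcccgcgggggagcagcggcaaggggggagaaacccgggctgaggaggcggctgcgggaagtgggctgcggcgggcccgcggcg
Srsf3: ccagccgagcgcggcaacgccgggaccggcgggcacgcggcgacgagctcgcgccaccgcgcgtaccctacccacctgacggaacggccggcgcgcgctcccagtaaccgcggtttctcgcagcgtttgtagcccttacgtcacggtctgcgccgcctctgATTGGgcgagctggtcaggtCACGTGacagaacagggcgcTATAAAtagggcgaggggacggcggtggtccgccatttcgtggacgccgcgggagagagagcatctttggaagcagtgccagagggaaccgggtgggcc

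The motifs searched, on both strands, were the E-box CACGTG, the GC box GGGCGG, the CCAAT box, the ETS site CCGGAAG, the cAMP response element TGACGTCA and the TATA box TATAAA. Of the 55 members, 50 matched by symbol and have 54 promoter entries, since some genes have several starts. A GC box was present in 63.0% of member entries and in 33.1% of all 33469 entries, a CCAAT box in 57.4 and 37.5% and an ETS site in 29.6 and 8.75%. E-boxes were present in 11.1 and 6.42%, TATA boxes in 14.8 and 14.2% and the cAMP element in 3.70 and 1.83%. Member promoters were richer in G and C, with a median of 60.1% against 51.7%, and the part of this composition in the motif shares was not tested. The comparison entries were not limited to genes expressed in these cells, whereas all members passed the filter. The part of expression in the motif shares was not tested either. These are counts of letters without a test, and a match is not a binding site.

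Among the hnRNP genes more members rose than fell. Of 19 Hnrnp genes 6 rose, 2 fell and 11 did not pass, with a median difference of 0.09, which was 0.02 under trimmed means. The shares were 31.6% higher and 10.5% lower, against 18.4 and 16.1% of all genes tested. Hnrnph1 and Hnrnph3, whose proteins bind runs of G and regulate nearby splice sites, rose by similar amounts. Hnrnph1 had 521, 512 and 506 RPKM with DHC and 438, 407.5 and 407 RPKM in control, a 1.23-fold rise (0.30 ± 0.04, limma adjusted p = 0.00201). Hnrnph3 had 61.6, 60.3 and 60.0 RPKM with DHC and 49.4, 49.3 and 47.7 RPKM in control, a 1.24-fold rise (0.31 ± 0.04, 0.00147 by limma). In both genes all DHC libraries lay above all control libraries. Their relatives Hnrnph2 and Hnrnpf did not pass. Hnrnph2 averaged 190.2 ± 0.722 RPKM with DHC and 195 ± 9.69 RPKM in control, and Hnrnpf 507 ± 18.6 and 475 ± 15.9 RPKM (SD, n = 3 each), with limma adjusted p of 0.606 and 0.162. The ratio of Hnrnph1 to Hnrnph2 within a library was 2.74, 2.70 and 2.65 with DHC and 2.13, 2.15 and 2.15 in control. It describes a chosen pair, without a test. Ratios of other pairs overlapped between the groups. Hnrnpa2b1 to Hnrnpa1 was 2.42, 2.47 and 2.54 with DHC and 2.33, 2.45 and 2.35 in control. Snrpb2 to Snrpb was 0.466, 0.504 and 0.461 with DHC and 0.447, 0.404 and 0.464 in control.

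Hnrnpul2, a relative of the nuclear scaffold protein gene Hnrnpu, had 390.2, 406 and 387 RPKM with DHC and 331, 326 and 327 RPKM in control (0.26 ± 0.04, limma adjusted p = 0.00177). Hnrnpu itself and Hnrnpul1 did not pass, with 316 ± 9.90 and 105.4 ± 2.75 RPKM under DHC and 311 ± 8.56 and 105.5 ± 3.15 RPKM in control (SD, n = 3 each). Hnrnpa2b1, which encodes a binder of exonic silencers and of RNA transport signals, was the most abundant of the 55 members. It had 3009, 2962 and 2926 RPKM in the DHC libraries and 2658, 2606 and 2486 RPKM in the control libraries, without overlap (0.20 ± 0.04, limma adjusted p = 0.0111). It alone made up 32.7% of the summed Hnrnp RPKM with DHC and 31.3% in control. With no filter on low values its adjusted p was 0.0765. Its close relative Hnrnpa1, which antagonizes SR proteins at exons, was the next most abundant, with 1246, 1197 and 1153 RPKM with DHC and 1141, 1064 and 1056 RPKM in control. These values do not overlap, and Hnrnpa1 did not pass (0.14 ± 0.05, limma adjusted p = 0.0606), though it did with limma-voom (0.0175), without control replicate 1 (0.0305) and without both libraries numbered 1 (0.0226). Hnrnpm, which regulates alternative exons, rose 1.13-fold, a call that ended under trimmed means (limma adjusted p = 0.00983, and 0.0587 under that scaling).

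Hnrnpd and Hnrnpdl, close relatives that are neighbours on chromosome 14, went opposite ways. Hnrnpd, which encodes AUF1, a binder of AU-rich elements that acts in mRNA decay, fell to 153, 161.5 and 151 RPKM with DHC, against 186, 208 and 205 RPKM in control (−0.36 ± 0.06, limma adjusted p = 0.00228). Hnrnpdl rose to 312.5, 305 and 294 RPKM with DHC, against 264, 275 and 256 RPKM in control (0.20 ± 0.04, 0.0126 by limma). Every Hnrnpd value was lower and every Hnrnpdl value higher with DHC than in any control library. The ratio of Hnrnpd to Hnrnpdl was 0.490, 0.530 and 0.514 with DHC and 0.706, 0.755 and 0.801 in control, given as a description since the pair was chosen after its values were seen. The Hnrnpdl call ended under trimmed means (limma adjusted p = 0.0512) and without DHC replicate 2 (0.0524). On Rnor_6.0 Hnrnpdl spans 11198896 to 11202669 and Hnrnpd 11256268 to 11274578 on the same strand, 53598 bases apart. Their promoters on GRCr8, both on the plus strand, are chr14:9861466-9861765 for the upstream start of Hnrnpdl and chr14:9919507-9919806 for Hnrnpd. Capitals again mark motif matches, with an E-box and GC boxes in both, a CCAAT box in the Hnrnpdl window and an ETS site and a TATA box in the Hnrnpd window. The window of the other listed Hnrnpdl start, not printed, holds GC boxes, CCAAT boxes and a TATA box and no E-box.
Hnrnpdl: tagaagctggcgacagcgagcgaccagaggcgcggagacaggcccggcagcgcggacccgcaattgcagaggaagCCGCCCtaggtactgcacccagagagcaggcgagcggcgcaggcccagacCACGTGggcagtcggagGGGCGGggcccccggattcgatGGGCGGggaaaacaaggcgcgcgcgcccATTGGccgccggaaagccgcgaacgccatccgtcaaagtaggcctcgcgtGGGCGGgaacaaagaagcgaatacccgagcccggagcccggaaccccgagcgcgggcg
Hnrnpd: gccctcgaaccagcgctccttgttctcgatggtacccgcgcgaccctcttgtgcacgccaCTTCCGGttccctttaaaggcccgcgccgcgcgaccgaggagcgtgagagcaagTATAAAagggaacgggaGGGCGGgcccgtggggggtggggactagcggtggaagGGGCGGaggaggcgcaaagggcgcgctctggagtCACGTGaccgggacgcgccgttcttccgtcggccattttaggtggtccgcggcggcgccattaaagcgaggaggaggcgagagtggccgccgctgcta

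Hnrnpll, which controls CD45 splicing in lymphocytes, was the other Hnrnp gene that fell, to 41.4, 43.0 and 37.5 RPKM with DHC, against 48.1, 48.1 and 45.7 RPKM in control (limma adjusted p = 0.0298). Its call ended without DHC replicate 3 (0.0809), control replicate 1 (0.0699) or control replicate 2 (0.0896), without both libraries numbered 1 (0.085) and with no filter on low values (0.0537). Hnrnpa3, Hnrnpab, Hnrnpc, Hnrnpk, Hnrnpl and Hnrnpr, general RNA packaging and splicing proteins, did not pass, with differences between −0.02 and 0.12. The row of Hnrnpa3 joins exons on 2 chromosomes, and 31.7% of the exon bases of Hnrnpab overlap another gene, so these values may hold reads of other loci.

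The Snrp genes that passed all moved in 1 direction. Other snRNP protein genes lie outside the symbol rule. Of 22 tested U snRNP and minor spliceosome genes not named Snrp, described below, 7 rose and Snrnp35 fell. Against 18.4% higher and 16.1% lower over all genes tested, 46.2% of Snrp genes rose and 0% fell. Of 13 Snrp genes 6 rose, 0 fell and 7 did not pass, and all 13 differences were positive under library totals, with a median of 0.20. Other scalings lowered this, to a median of 0.14 with 11 positive differences under trimmed means and 0.15 with 11 under median-of-ratios factors. The number that rose was 1 under trimmed means, 3 under median-of-ratios factors, 3 with no filter on low values, 1 without DHC replicate 2, 3 without DHC replicate 3 and 2 without control replicate 2. Without DHC replicate 1 or control replicate 1 it was 4, and without control replicate 3 it was 5. Among the Sm ring genes, Snrpd1 had 143.5, 152 and 151 RPKM with DHC and 126, 134 and 128 RPKM in control (0.20 ± 0.04, limma adjusted p = 0.0114). Snrpd2 had 85.8, 82.8 and 80.3 RPKM with DHC and 65.1, 72.4 and 71.9 RPKM in control (0.25 ± 0.06, 0.0121 by limma), and passed under each alternative run at that threshold. Snrpf, the most abundant gene of the family, had 516, 588 and 591 RPKM with DHC and 442, 471 and 495 RPKM in control (0.27 ± 0.07, 0.0192 by limma). The DHC libraries were above the control libraries in all 3 genes. The Snrpd1 call ended under trimmed means (0.0598) and without DHC replicate 2 (0.0546).

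The Sm genes Snrpb, Snrpd3 and Snrpg did not pass, and Snrpe had no row under that symbol. Snrpb averaged 123 ± 2.39 RPKM with DHC and 115.5 ± 1.96 RPKM in control, and Snrpd3 163 ± 3.98 and 161 ± 9.26 RPKM (SD, n = 3 each), with limma adjusted p of 0.121 and 0.816. Snrpg, at 19.4, 14.5 and 13.8 RPKM with DHC and 15.7, 15.8 and 11.5 RPKM in control, had an SE of 0.15 around a difference of 0.14. Among the U1 proteins, Snrpc had 34.6, 30.6 and 30.7 RPKM with DHC and 28.2, 25.9 and 23.6 RPKM in control (0.29 ± 0.08, limma adjusted p = 0.0263), a call that ended with no filter on low values (0.0598), under trimmed means (0.053) and without DHC replicate 1 (0.0668), DHC replicate 2 (0.0518), control replicate 2 (0.0669) or control replicate 3 (0.073). Snrpa, also of U1, did not pass (0.141). Of the U2 proteins, Snrpb2 rose 1.16-fold (0.0279, but 0.107 under trimmed means, 0.0866 under median-of-ratios factors, and 0.104, 0.0639 and 0.0861 without DHC replicate 2, DHC replicate 3 or control replicate 2) and Snrpa1 did not pass (0.291). Snrpn, an imprinted Sm gene known from neurons, had 15.1 ± 0.227 RPKM with DHC and 12.55 ± 1.24 RPKM in control (SD, n = 3 each, limma adjusted p = 0.0377). Its exons overlap those of Snurf over 85.4% of their bases, both rows hold nearly the same reads (641, 693 and 629 with DHC and 514, 505 and 689 in control for Snrpn), and the call ended under trimmed means (0.112), median-of-ratios factors (0.0942) and no filter on low values (0.0689). It also ended without both libraries numbered 1 (0.126) and without any single library but control replicate 3 (0.0709 to 0.112). The small rows Snrpd2l, a pseudogene in RefSeq, and Snrpep2 held 17 to 46 reads in any library and could draw reads from related genes. Snrpf overlaps another annotated gene over 20.5% of its exon bases, and its call ended with no filter on low values (0.0548), under trimmed means (0.0714), median-of-ratios factors (0.0568) and without DHC replicate 2 (0.0757), DHC replicate 3 (0.0646), control replicate 1 (0.0509) or control replicate 2 (0.0543).

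The subunits of SF3a and SF3b diverged, led by Sf3b2. Of 9 genes 3 rose (Sf3b2, Sf3a3 and Sf3b6), 2 fell (Sf3b1 and Sf3b4) and 4 did not pass. These were 33.3 and 22.2%, against 18.4% higher and 16.1% lower over all genes tested. Sf3b2, the gene of an SF3b subunit that contacts pre-mRNA near the branch point, had 729, 713 and 747 RPKM in the DHC libraries and 462, 479 and 473 RPKM in the control libraries. The lowest DHC value was far above the highest control value, and the 1.55-fold rise was the largest and had the lowest adjusted p among the 55 members (0.63 ± 0.04, limma adjusted p = 3.78e-05). It lies on chromosome 1, 220645672 to 220665603, on the minus strand of Rnor_6.0. Sf3b1, which encodes the large subunit that holds the branch point adenosine, fell to 89.5, 84.0 and 84.3 RPKM with DHC, against 108, 102 and 102 RPKM in control (−0.27 ± 0.05, limma adjusted p = 0.0045). The ratio of Sf3b1 to Sf3b2 was 0.123, 0.118 and 0.113 with DHC and 0.234, 0.212 and 0.215 in control, a description of a pair chosen after its values were seen.

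Sf3a3, which joins SF3a to U2, had 161, 160.3 and 162 RPKM with DHC and 133, 127 and 129 RPKM in control (0.31 ± 0.04, limma adjusted p = 0.000937), again without overlap. The other SF3a genes, Sf3a1 and Sf3a2, did not pass, at 38.4 ± 1.67 and 18.7 ± 1.28 RPKM with DHC and 36.4 ± 0.321 and 19.9 ± 1.43 RPKM in control (SD, n = 3 each). Sf3b6, whose product touches the branch point adenosine, had 68.8, 73.4 and 70.5 RPKM with DHC and 63.6, 63.0 and 54.8 RPKM in control (0.23 ± 0.07, limma adjusted p = 0.0317). That call ended with no filter on low values (0.0651), under trimmed means (0.0835), median-of-ratios factors (0.0713) and without DHC replicate 2 (0.109), DHC replicate 3 (0.0756) or control replicate 3 (0.0685). Sf3b4 fell to 31.0 ± 0.86 RPKM with DHC, against 35.0 ± 1.37 RPKM in control (SD, n = 3 each, limma adjusted p = 0.0388). It did not pass with limma-voom (0.0523), without both libraries numbered 1 (0.0669) nor without any 1 of the 6 libraries (0.0512 to 0.118). Sf3b3, at 28.7, 27.8 and 29.1 RPKM with DHC and 29.7, 30.7 and 30.8 RPKM in control, did not pass (0.182) except under trimmed means (0.0484). Sf3b5 varied widely within groups, with 58.4, 68.4 and 77.3 RPKM with DHC and 47.5, 61.0 and 62.4 RPKM in control.

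None of the 3 U2AF genes passed, where 34.5% of all genes tested did in either direction. U2af1, the subunit that reads the last bases of the intron, had 226, 217 and 224 RPKM with DHC and 213, 228 and 228 RPKM in control (−0.00 ± 0.04, limma adjusted p = 0.967). U2af2, which binds the polypyrimidine tract, had 249, 248.2 and 252 RPKM with DHC and 231, 240.2 and 248.2 RPKM in control (0.06 ± 0.04, 0.311 by limma). U2af1l4, a paralog of U2af1, averaged 49.9 ± 2.17 RPKM with DHC and 48.7 ± 4.35 RPKM in control (SD, n = 3 each, limma adjusted p = 0.706). The groups overlapped in U2af1 and U2af1l4, and in U2af2 the lowest DHC value barely exceeded the highest control value. The differences of U2af2 and U2af1l4 turned negative under trimmed means.

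**Figure D4:**
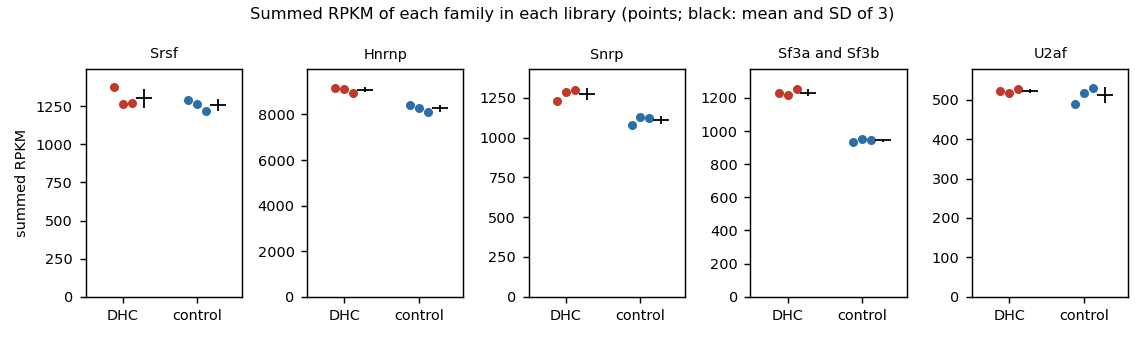
Summed RPKM of each family in each library, with DHC in red on the left and control in blue on the right, axes starting at 0, and the mean and SD of 3 libraries in black. The Sf3a and Sf3b sum is 1215 to 1255 RPKM with DHC and 936 to 952 RPKM in control, whereas the Srsf and U2af sums overlap between the groups.

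Summed over its genes, the Sf3a and Sf3b family stood at 1232 ± 20.4 RPKM with DHC and 944 ± 7.94 RPKM in control (SD, n = 3 each). Sf3b2 made up 59.2% of that sum with DHC and 49.9% in control. Without it the sum was 503 ± 4.86 RPKM with DHC and 473 ± 1.49 RPKM in control. The Hnrnp sum was 9077 ± 109 RPKM with DHC and 8265 ± 152 RPKM in control, and without Hnrnpa2b1 it was 6111 ± 70.2 and 5681 ± 68.2 RPKM. The Snrp sum was 1272 ± 38.9 RPKM with DHC and 1110.0 ± 27.3 RPKM in control. The U2af sum was 522 ± 5.48 RPKM with DHC and 512 ± 20.6 RPKM in control. The sums are scores over chosen members and carry no test.

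Other genes of the splicing machinery were described from 6 lists. Their counts are to be read beside all genes tested, of which 18.4% rose and 16.1% fell. Under trimmed means these shares were 12.0 and 19.8%. Of 22 tested U snRNP and minor spliceosome genes not named Snrp, 7 rose and 1 (Snrnp35) fell, with a median difference of 0.17, and under trimmed means 4 rose and 3 fell. Without control replicate 2, 4 rose, without DHC replicate 1, 2 fell, and without control replicate 3, 0 fell. The genes with the lowest p belong to the minor spliceosome, which removes a rare class of introns. Zrsr2, which recognizes the end of such introns, had 64.3, 62.3 and 61.4 RPKM with DHC and 33.1, 32.9 and 28.3 RPKM in control, a 1.995-fold rise (0.98 ± 0.07, limma adjusted p = 6.13e-05). Rnpc3, which bridges U11 and U12, had 42.3, 38.4 and 35.4 RPKM with DHC and 20.9, 18.8 and 17.6 RPKM in control, a 2.02-fold rise (0.98 ± 0.09, 0.000167 by limma). Zrsr1, a close relative of Zrsr2, rose 1.67-fold, to 134 ± 13.9 RPKM with DHC, against 80.5 ± 6.39 RPKM in control (SD, n = 3 each). All 3 ratios exceed that of every member that rose, and reads of the related Zrsr genes may be shared between their rows. Other minor spliceosome genes of this list went both ways. By log2 difference, Pdcd7 (0.45), Snrnp25 (0.32) and Zcrb1 (0.18) rose and Snrnp35 (−0.365) fell. Snrnp48 (−0.13), Zmat5 (−0.20) and Rbm48 (−0.01) did not pass.

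Of 55 tested helicases and Prp19, B and C complex factors, 16 rose and 6 fell (median 0.06), and under trimmed means 8 rose and 11 fell. Over all genes tested 18.4% rose and 16.1% fell, and under trimmed means 12.0 and 19.8%. Prpf4, of the U4 and U6 particle, rose 1.44-fold (limma adjusted p = 0.00237), while Prpf38b fell to 295 ± 26.3 RPKM with DHC, against 432 ± 17.1 RPKM in control, and Prpf18, which acts in the second step of splicing, to 8.86 ± 0.779 against 13.7 ± 1.42 RPKM (SD, n = 3 each). Without DHC replicate 1, DHC replicate 2 or control replicate 3, 9 of this list rose, and without DHC replicate 3, 3 fell. Against the same shares of 18.4 and 16.1%, 3 of 29 tested SR-related genes and SR protein kinases rose and 7 fell (median −0.01). Those that rose were Rsrp1 (1.83-fold), Pnn (1.54-fold) and Arglu1 (1.31-fold), and without DHC replicate 2, DHC replicate 3 or control replicate 3, 2 fell, and without control replicate 1 or control replicate 2, 3 fell. Without control replicate 1, 5 of this list rose.

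Of 47 tested splicing regulators and hnRNP-like genes, 18 rose and 5 fell (median 0.12), and under trimmed means 13 rose and 6 fell. The shares over all genes tested were 18.4% higher and 16.1% lower, and 12.0 and 19.8% under trimmed means. Ptbp1, the polypyrimidine tract binding protein gene, had 74.7, 75.2 and 78.0 RPKM with DHC and 51.4, 54.3 and 51.8 RPKM in control (0.53 ± 0.05, limma adjusted p = 0.000161). Cirbp, a cold-inducible RNA-binding protein gene, rose 1.74-fold, and Pcbp4, a poly-C binding protein gene, fell to 14.2 ± 0.49 RPKM with DHC, against 27.2 ± 2.63 RPKM in control (SD, n = 3 each). Without 1 library at a time, 1 (DHC replicate 2), 2 (any control replicate) or 3 (DHC replicate 1 or 3) of this list fell, and without DHC replicate 2, 12 rose. Of 19 tested snRNP assembly genes 5 rose and 0 fell (median 0.15), and under trimmed means and without DHC replicate 3, control replicate 1 or control replicate 2, 3 rose, and 2 without DHC replicate 2. Coprs, a partner of the arginine methyltransferase that modifies Sm proteins, rose 1.42-fold, the cap-binding gene Ncbp2 1.45-fold and Coil, the Cajal body protein gene, 1.33-fold. The Coil call (limma adjusted p = 0.0195) ended without DHC replicate 1 (0.055), DHC replicate 2 (0.0737) or control replicate 2 (0.0652), and without both libraries numbered 1 (0.0938).

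Of 18 tested exon junction and nonsense-mediated decay genes, 6 rose and 2 fell (median 0.09), and 4 rose under trimmed means or without any 1 library. All genes tested had shares of 18.4% higher and 16.1% lower. Magoh, an exon junction core gene, had 369, 394 and 399 RPKM with DHC and 325, 308 and 308 RPKM in control (0.30 ± 0.05, limma adjusted p = 0.00243). Its paralog Magohb fell to 42.8, 44.7 and 40.7 RPKM with DHC, against 66.7, 63.2 and 62.5 RPKM in control (−0.58 ± 0.05, 0.000217 by limma). Magoh was higher and Magohb lower in every DHC library than in any control library, and reads of these similar genes may be shared between their rows. Upf3b, which links exon junctions to decay, rose 1.21-fold. With any library but DHC replicate 1 left out, 1 gene of this list fell.

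**Figure D5:**
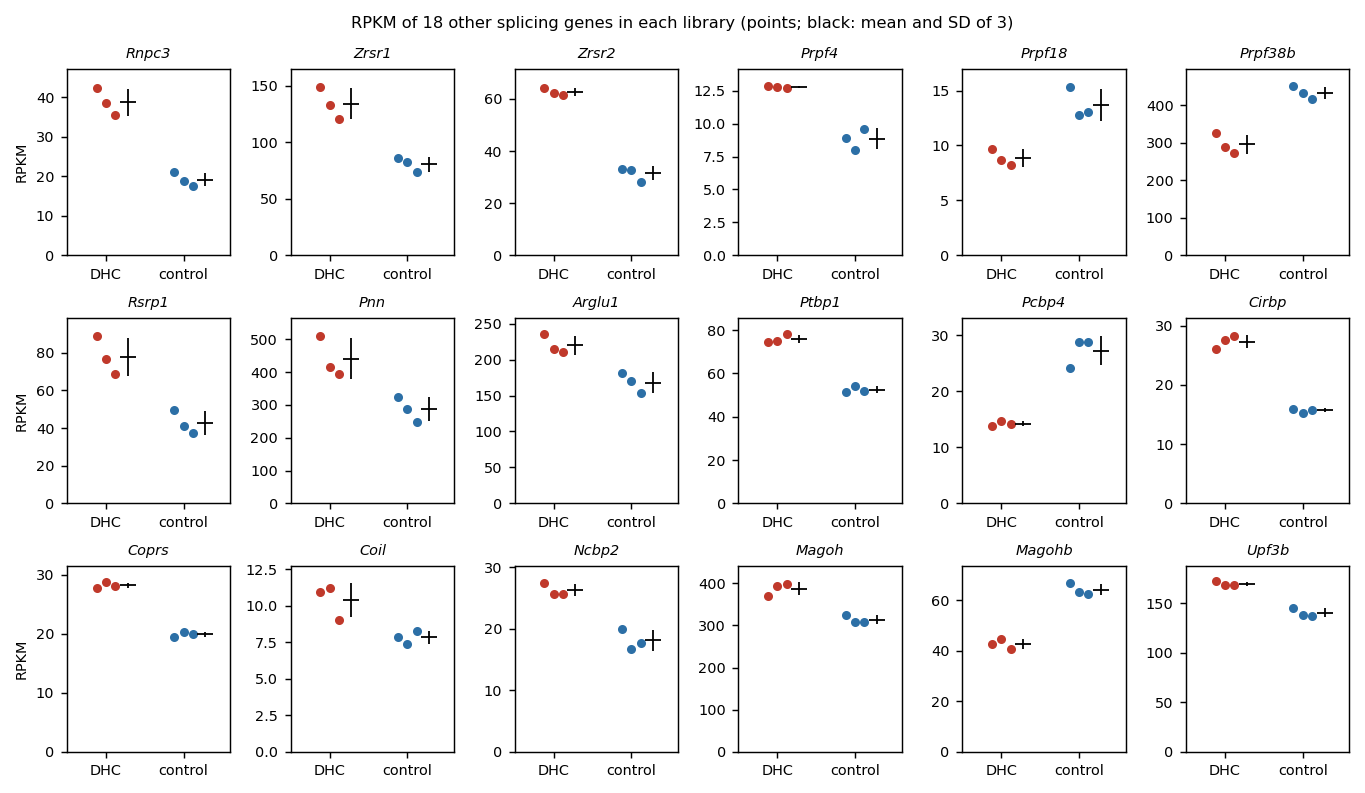
RPKM of the 18 other splicing genes named by rule, with DHC in red on the left and control in blue on the right of each panel, axes starting at 0, and the mean and SD of 3 libraries in black. Groups do not overlap in any panel, which the rule required, and DHC is lower only for Prpf18, Prpf38b, Pcbp4 and Magohb.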

How the data were processed

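The 6 libraries were grouped by their titles, 3 DHC and 3 control. The authors deposited 1 RPKM value per gene and library, and per the file headers the table also holds each gene's exon positions and total exon length. The submitters' processing notes name Trimmomatic 0.36, Subread 1.5.1 with featureCounts, edgeR 3.12.1 and, as build, Rnor_6.0. No source used here gives the aligner, annotation release or strand setting, so reads of overlapping or antisense genes cannot be told apart. That the unit is RPKM was found from the values. Multiplied by exon length and divided by the value of 1 read in each library, 100% of values came out as whole reads (tolerance 0.01 read), which gave read numbers and library totals.

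Limma 3.58.1 in R 4.3.3 was run with a trended variance on log2(RPKM + 1) for the 10667 genes that averaged 1 RPKM or more, with group as the only term, two-sided, with Benjamini-Hochberg adjustment over all of them and a threshold of 0.05. Means ± SD are of RPKM, SEs are of log2 differences, and folds are ratios of mean RPKM. No label ties the libraries to separate cultures, so p-values measure the spread between libraries, which may be technical. The members and lists were chosen with earlier results of these data known. Members given with values in every library were the up to 4 of each family with the lowest p among those past the threshold, the 3 largest changes in each direction, the most abundant of each family and all U2af genes, with others added after their values were seen. Of the 6 other lists, up to 3 genes with the lowest p among those past the threshold without overlap were named. Snrnp35 and further minor spliceosome genes of the first list were added after their values were seen. Promoters came from RefSeq tables of GRCr8, and 6 common promoter motifs were searched. Alternatives were pseudocounts of 0.1 and 0.5, filters, 2 scalings, limma-voom, robust variance, a replicate block, a threshold of 0.01 and leaving out libraries.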

Additional observations from a re-analysis of the deposited data

How the results depend on the processing

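The 13 members named in the report kept their calls over the pseudocounts, filters, scalings, limma-voom, robust variance, replicate block and left-out libraries that were run at the same threshold. Over all genes 1284 rose under trimmed means. At a threshold of 0.01, 873 rose and 1076 fell. When single libraries were left out, the number that rose over all genes lay between 1195 and 1755. Members that rose numbered 9 under trimmed means, 7 at 0.01 and 10 to 17 without single libraries. Members that fell numbered 5 at 0.01, 5 without both libraries numbered 1 and 5 to 7 without single libraries. Snrp genes that rose numbered 3 with no filter or median-of-ratios factors, 1 under trimmed means, 0 at 0.01 and 1 to 5 without single libraries. At 0.01, 1 Srsf gene rose and 1 Hnrnp and 1 Sf3 gene fell. Hnrnp genes that fell numbered 1 with no filter and without libraries numbered 1, and 1 to 2 without single libraries, and Sf3 genes that fell numbered 1 with limma-voom, without libraries numbered 1 and without any single library.

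In the U snRNP list, 4 rose and 3 fell under trimmed means, 3 fell under median-of-ratios factors, 4 rose and 0 fell at 0.01, and 4 to 7 rose and 0 to 2 fell without single libraries. In the helicase list, 8 rose under both scalings, 11 fell under trimmed means, 6 rose and 3 fell at 0.01, and 9 to 13 rose and 3 to 7 fell without single libraries. In the SR-related list, 5 rose above 5 RPKM, with limma-voom or without libraries numbered 1, 2 fell with no filter and 1 at 0.01, and 3 to 5 rose and 2 to 7 fell without single libraries. In the regulator list, 11 rose and 1 fell at 0.01, 3 fell without libraries numbered 1, and 1 to 3 fell without single libraries. In the assembly list, 3 rose under either scaling or without libraries numbered 1, 2 at 0.01 and 2 to 5 without single libraries. In the exon junction list, 3 rose and 1 fell at 0.01, and 1 to 2 fell without single libraries.

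Same-numbered DHC and control libraries deviated from their group means with correlations of 0.228, −0.0495 and 0.0828. With 3 libraries per group, these correlations cannot tell whether the numbers pair the libraries. Of the 6 libraries, only DHC replicate 1 and control replicate 1 correlated best with their own number. With a replicate block, 24 members rose and 8 fell, and 6 SR-related genes rose. Over all genes 2426 rose with the block and 1968 without it.

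Signs reversed only for members that did not pass. Under trimmed means these were Srsf11 (−0.0303), Srsf7 (−0.0320), Hnrnpa3 (−0.0394), Hnrnpu (−0.0443), Snrpd3 (−0.0481), Snrpep2 (−0.0452), U2af1l4 (−0.0265) and U2af2 (−0.0086), and under median-of-ratios factors Srsf11 (−0.0206), Srsf7 (−0.0223), Hnrnpa3 (−0.0297), Hnrnpu (−0.0346), Snrpd3 (−0.0384), Snrpep2 (−0.0376) and U2af1l4 (−0.0169). Without both libraries numbered 1, Hnrnph2 (0.0068), Hnrnpr (0.0165) and Snrpep2 (−0.2683) reversed, and with a pseudocount of 0.1 Snrpep2 (−0.0059). Without single libraries the ranges crossed 0 for Hnrnph2 (−0.0540 to 0.0072), Hnrnpl (−0.0517 to 0.0197), Hnrnpr (−0.0397 to 0.0071), Hnrnpu (−0.0028 to 0.0440), Hnrnpul1 (−0.0253 to 0.0166), Snrpd3 (−0.0256 to 0.0567), Snrpep2 (−0.2044 to 0.2692), Snrpg (−0.0059 to 0.2294), Srsf11 (−0.0206 to 0.0672), Srsf7 (−0.0188 to 0.0895), U2af1 (−0.0347 to 0.0141) and U2af1l4 (−0.0223 to 0.1035). The cause of these changes was not tested. Depth limits Snrpep2 most among the members, with as few as 17 reads in a library and an SE of 0.24.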
